A study of Sus scrofa with 36 samples.

Results

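The arrays described here are the 9 highest and the 9 lowest in transthyretin (TTR) RNA among 36 arrays of piglet hippocampus, ranked by the only probe set named TTR and called TTR-high and TTR-low below. The other 18 arrays fell in neither class. The hippocampi came from male piglets, a Landrace×Large White cross, at postnatal day 38. Their milk replacer, fed from a start at day 3, held a basal level of lactoferrin in the control group and 0.6 g/L in the medium dose group, while the high dose group received 1.2 g/L, with 12 arrays in each. The control feed thus held lactoferrin too, in an amount that the labels do not give. Values are log2 levels. The label under which the arrays were grouped, a choroid plexus share, was set beside 20 measured choroid plexus genes. None of them passed the test between the classes, as 0% of all probe sets did, and their median difference of 0.01 was close to that of all probe sets, 0. Of the 20 genes 6 had a signal close to the limit for dim probe sets, and 26 listed symbols were not analysed. Whether the classes differ by a small share of plexus tissue was thus not tested. The classes are therefore named only by the TTR level that chose them.

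Transthyretin is a secreted carrier of the thyroid hormone thyroxine, and it carries retinol (vitamin A) through its partner RBP4. In the brain it is made mainly by the epithelium of the choroid plexus, the folded tissue in the ventricles that secretes cerebrospinal fluid and lies against the hippocampus. A dissected hippocampus can carry attached plexus, and such tissue brings TTR together with other genes of that epithelium, such as FOLR1, AQP1, CLDN3 and PRLR. In bulk tissue, fewer cells of a type and less RNA per cell cannot be told apart.

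In the TTR-high arrays TTR read 8.2, 8.0 and 7.3 in 3 control arrays (replicates 10, 8 and 6), 7.8, 7.1 and 7.1 in 3 medium dose arrays (4, 5 and 12), and 7.3, 7.1 and 7.0 in 3 high dose arrays (2, 10 and 9). In the TTR-low arrays it read 5.6, 5.4, 5.4 and 5.1 in 4 control arrays (replicates 3, 2, 5 and 1), 5.4 in 1 medium dose array (1), and 5.6, 5.6, 5.5 and 5.0 in 4 high dose arrays (7, 11, 1 and 12). The means were 7.43 ± 0.45 and 5.40 ± 0.22 (SD, n = 9 each). The gap of 2.03, or 4.09-fold, was made by the choice of arrays and is a description only. The TTR-low values lay close to 4.92, the limit under which probe sets were left out as dim. They also lay below the median of every array of both classes, 6.6 or 6.7, while the TTR-high values lay above it.

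The classes had no clean edge. The lowest TTR-high array read 7.0, and 4 arrays just outside read 6.9. At the lower edge 4 arrays read 5.6, of which 3 entered TTR-low by column order and 1, control replicate 12, did not. Over all 36 arrays TTR ran between 5.0 and 8.2 with a median of 6.5 and an SD of 0.82. This SD ranked 49 among 23999 probe sets, whose median SD was 0.171.

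**Figure D1:**
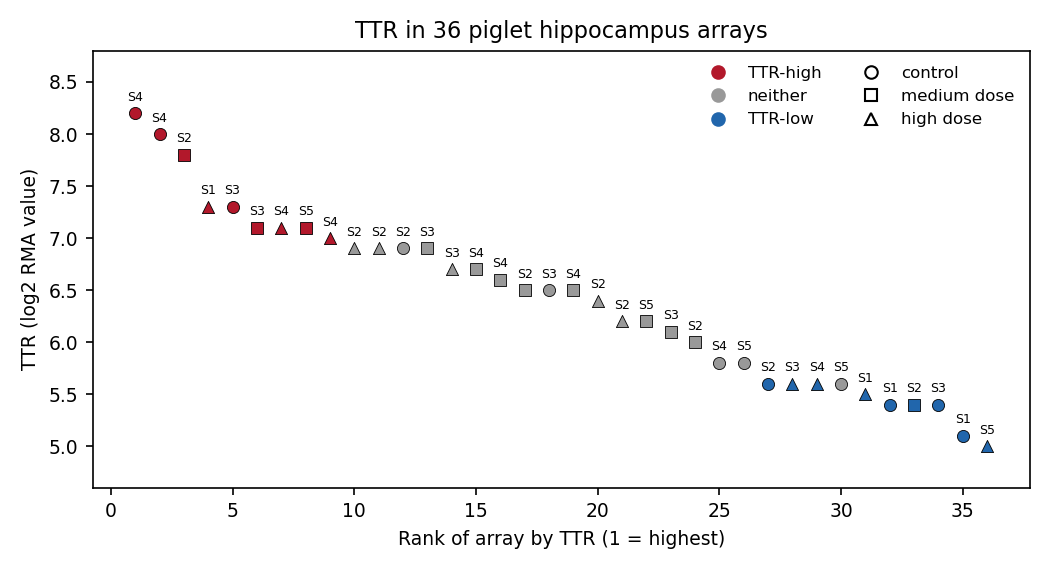
TTR (log2 RMA value) against the rank of each of 36 arrays, with colour for the class, marker shape for the feeding group and S1 to S5 for the set code in the sample descriptions. Values step down with no break between the TTR-high arrays, which end at 7.0, and the next arrays at 6.9, and every feeding group has arrays in both classes.

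TTR itself was spread within each feeding group more than between them. Control arrays ran between 5.1 and 8.2 (6.30 ± 1.06, SD, n = 12), medium dose arrays between 5.4 and 7.8 (6.58 ± 0.62), and high dose arrays between 5.0 and 7.3 (6.35 ± 0.76). The control group held both the highest array and the second lowest. TTR-high held 3 arrays of each feeding group, and TTR-low held 4 control arrays, 1 of the medium dose and 4 of the high dose (Fisher's exact test, two-sided, p = 0.698). By set code, a prefix in the sample descriptions whose meaning the labels do not give, TTR-high held 1, 1, 2, 4 and 1 arrays of S1 to S5, and TTR-low held 3, 2, 2, 1 and 1 (Fisher's exact test, p = 0.669).

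Array quality measures overlapped between the classes. An array's correlation with all other arrays averaged 0.989 in TTR-high and 0.990 in TTR-low arrays (exact permutation test, two-sided, p = 0.565, 1 of 6 measures, adjusted p = 0.941). The 3′ minus 5′ signal of the actin controls, a sign of RNA degradation, averaged 2.78 ± 0.71 in TTR-high and 2.63 ± 0.34 in TTR-low arrays (exact p = 0.628, adjusted p = 0.941). The TTR-high array high dose replicate 2 stood apart with the lowest mean correlation of both classes, 0.980. Some of the genes and lists described below are also given without it.

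No probe set passed between the classes. In limma's fit over 18005 probe sets, TTR left out, 0 passed at a Benjamini-Hochberg adjusted p under 0.05 (0% called), and the smallest adjusted p was 1. At an unadjusted p under 0.05 there were 198 (1.1% called), 92 higher (0.511%) and 106 lower (0.589%) in TTR-high arrays. The nominal share at this threshold is 5%. Of all 18005, 44.2% lay above 0 and 49.4% below, and 0 had classes that did not overlap. Nothing in the labels says that replicates came from separate animals or cultures, so p-values measure the spread between these arrays.

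The choroid plexus epithelium list has 50 symbols. TTR and 23 others are named on the array, 3 of which, KCNE2 (mean 4.62), STEAP1 (4.90) and KRT8 (4.14), lay under the limit for dim probe sets of 4.92, and 20 were tested. The remaining 26 symbols, among them KL, CLIC6, KCNJ13, OTX2 and CLDN2, were not analysed here. Of the 20 tested, 11 lay above 0 and 8 below, with 1 at 0, against 44.2% and 49.4% of all probe sets. The list's median difference was 0.01, and that of all probe sets was 0. None had an unadjusted p under 0.05 (the background is 1.1%), and the smallest was 0.145. The mean of the list was 6.83 ± 0.12 in TTR-high and 6.85 ± 0.10 in TTR-low arrays (SD, n = 9 each).

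FOLR1 is a folate receptor that loads folate into cerebrospinal fluid, and it read 6.3, 7.2 and 7.7 (lowest, median, highest) in TTR-high against 6.9, 7.5 and 7.9 in TTR-low arrays. The difference was -0.10 (SE 0.17, 95% interval -0.46 to 0.26, limma p = 0.566, adjusted p = 1). The classes overlapped over most of their ranges, and the lowest of the 18 arrays, medium dose replicate 5 at 6.3, was TTR-high.

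AQP1, the water channel of the apical membrane, read 6.1, 6.3 and 6.5 in TTR-high against 6.1, 6.2 and 6.5 in TTR-low arrays, a difference of 0.02 (interval -0.13 to 0.17). CLDN3, a claudin of the tight junctions of this epithelium, read 5.9, 6.0 and 6.4 in TTR-high and 5.7, 6.0 and 6.3 in TTR-low arrays, with a difference of 0.00 (interval -0.17 to 0.17). PRLR, the prolactin receptor, read 5.8, 6.0 and 6.2 in TTR-high against 5.5, 6.0 and 6.4 in TTR-low arrays, with a difference of 0.01 (interval -0.21 to 0.23). These 3 genes had nearly the same medians and ranges in both classes.

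Among the transporters and enzymes, SLC22A8, an organic anion transporter, had the smallest p of the list. It read 4.9, 5.0 and 5.3 in TTR-high against 4.7, 4.9 and 5.1 in TTR-low arrays (difference 0.11, SE 0.07, limma p = 0.145, adjusted p = 1), with 8 of 9 TTR-high arrays above the TTR-low median but the signal close to the dim limit. CA12, a carbonic anhydrase, went the other way, 7.8, 8.4 and 8.5 in TTR-high against 8.2, 8.4 and 8.7 in TTR-low arrays (difference -0.12, limma p = 0.196, adjusted p = 1). SLC31A1, a copper importer, differed by 0.07, SLC2A12, a glucose transporter, by 0.04, ACE, the angiotensin converting enzyme, by 0.03, and ABCA4, a retinoid transporter of photoreceptors, by 0.02.

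Among the secreted proteins, F5, coagulation factor V, had the largest difference above 0: it read 8.5, 9.1 and 9.5 in TTR-high against 8.2, 8.9 and 10.1 in TTR-low arrays (0.17, SE 0.23). Its widest values were in the TTR-low class. ENPP2, a secreted enzyme made also by oligodendrocytes, read 10.8, 11.1 and 12.6 in TTR-high against 10.5, 11.5 and 11.8 in TTR-low arrays (-0.02). The 12.6 was high dose replicate 2, without which the difference was -0.18. CXCL14, a chemokine also made by interneurons, differed by -0.09, and GPX3, a secreted glutathione peroxidase, by 0.01.

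The gene listed as C3H2orf40 (ECRG4), a secreted peptide precursor of this epithelium, read 5.1, 5.8 and 8.0 in TTR-high against 5.4, 6.2 and 7.2 in TTR-low arrays. Its difference of -0.22 (SE 0.29) was the lowest of the list, and 8 of 9 TTR-high arrays lay below the TTR-low median. The array at 8.0 was high dose replicate 2, with the next TTR-high array at 6.0. Without that array the difference was -0.48 (limma p = 0.0238, not passing after adjustment), and with set code and feeding group as blocks it was 0.38 (limma p = 0.211), a turn of its sign.

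Of the other members, CALML4, a calmodulin-like protein, differed by -0.17 (SE 0.23), and by -0.33 without high dose replicate 2, which read 7.1. KRT18, a keratin, differed by -0.06, CDH3, a cadherin, by -0.09, MSX1, a homeobox factor, by 0.11 (0.05 without that array) and SPINT2, a protease inhibitor, by 0.01. All 20 genes had overlapping classes, as did all 18005 probe sets tested. The highest upper end of a 95% interval was 0.64, for F5, or 1.56-fold, and for 19 of 20 genes the upper end was below 0.5. Without high dose replicate 2, 7 of the 20 genes lay above 0 and 13 below, with a median of -0.01. The share of all probe sets above 0 in that fit is not given here. Of the 20 genes 1, C3H2orf40, had an unadjusted p under 0.05 there. Fits leaving out 1 array called 161 to 326 of 18005 probe sets at that threshold. Part of the list was dim, with 6 of 20 genes within 1 of the dim limit.

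**Figure D2:**
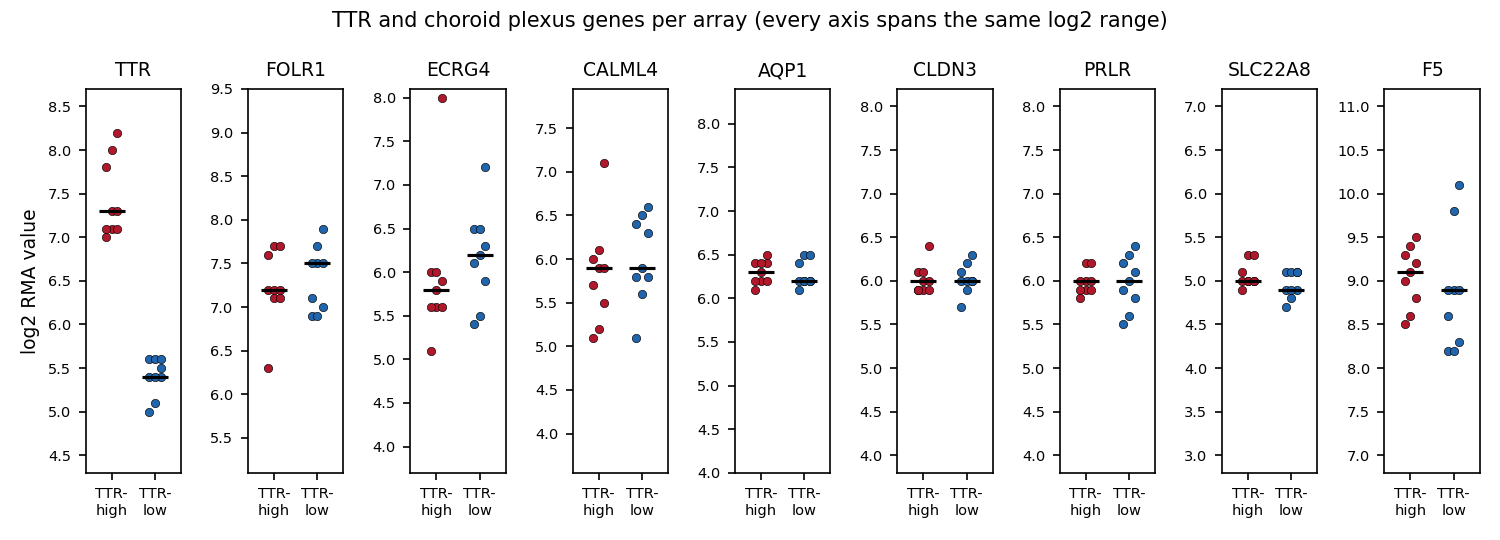
Log2 RMA values of TTR and 8 choroid plexus genes in each of 9 TTR-high (left) and 9 TTR-low (right) arrays, with bars at the class medians and vertical axes of equal span. TTR is split because it chose the arrays, and the classes of the other 8 genes overlap, as do those of all probe sets tested.

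**Figure D3:**
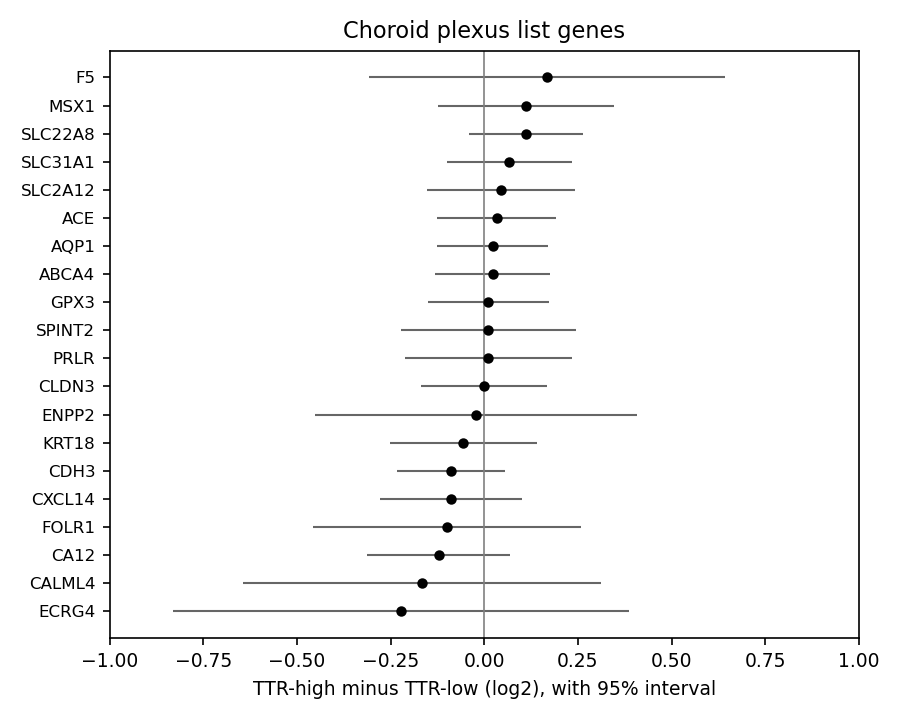
Difference TTR-high minus TTR-low in log2 for each of 20 choroid plexus genes, with 95% intervals. All intervals hold 0, and the highest upper end is 0.64, for F5.

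Across all 36 arrays, which share a normalisation, the 20 genes did not follow TTR or each other closely. Pearson's r with TTR ran between -0.351 for CA12 and 0.287 for SLC22A8, with a median of 0.015. Among the 190 pairs of the 20 genes the median r was 0.116 and the highest 0.65, for ABCA4 and CDH3.

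The 18 arrays in neither class, whose TTR ran between 5.6 and 6.9, gave a separate reading. There, 0 of 18005 probe sets had a slope on TTR that passed (limma, 0% called, smallest adjusted p = 0.958), and 818 had an unadjusted p under 0.05 (4.54%), 2.25% upwards and 2.29% downwards. Of the choroid plexus genes 5 had a slope above 0 and 15 below, with a median of -0.03 and 0 at an unadjusted p under 0.05, while 49.1% of all probe sets lay above 0. Over all 36 arrays, 0 passed (smallest adjusted p = 0.998), with 595 at an unadjusted p under 0.05 (3.3%), 1.59% upwards and 1.71% downwards. Of the choroid plexus genes 11 had a slope above 0 there, against 47.8% of all probe sets, and 1, CA12, had an unadjusted p under 0.05, downwards.

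The same 20 genes were set against lactoferrin feeding, with set code as a block. In medium dose minus control arrays 11 lay above 0 and 9 below (50.3% of all probe sets above 0), with a median of 0.00. In high dose minus control arrays 15 lay above 0 and 5 below (49.7% of all above 0), with a median of 0.05. In each contrast 0 had an unadjusted p under 0.05, against 6.93% of all probe sets for the medium dose and 4.94% for the high dose, and the smallest adjusted p was 0.803 and 0.976. Both contrasts share the 12 control arrays.

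Genes around TTR's functions did not pass either. Of 9 tested genes of cerebrospinal fluid secretion 4 lay above 0, with a median of -0.01. Of 7 genes of thyroid hormone and retinoid handling 3 lay above 0, with a median of 0, or of -0.06 without high dose replicate 2. ALDH1A1, which makes retinoic acid, read 6.1, 7.6 and 8.2 in TTR-high against 7.0, 7.9 and 9.7 in TTR-low arrays (-0.58, SE 0.33, limma p = 0.094, adjusted p = 1). DIO3, which inactivates thyroid hormone, differed by -0.13 (limma p = 0.060, adjusted p = 1). Over all 36 arrays 2 of these 7 genes, ALDH1A1 and DIO3, had a downward slope on TTR with an unadjusted p under 0.05. Of all probe sets 1.71% had one, and neither gene passed after adjustment. Of 18 secreted carrier and binding proteins 10 lay above 0, with a median of 0.01, among them APOA1, a lipoprotein component, at 0.16. TF, transferrin, differed by -0.20, and by -0.36 without high dose replicate 2, which read 13.7 (limma p = 0.0306, not passing after adjustment).

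The ependyma, which lines the ventricles beside the plexus, was read through 10 genes of motile cilia. Of these 1 lay above 0 and 8 below, with a median of -0.10. RIBC2, a protein of ciliary microtubules, read 6.1, 6.7 and 7.0 in TTR-high against 6.0, 7.1 and 7.6 in TTR-low arrays (-0.39, SE 0.19, limma p = 0.051, adjusted p = 1), and 9 of 9 TTR-high arrays lay below the TTR-low median. CFAP126 differed by -0.27, MLF1 by -0.20 and ENKUR by -0.18. Without high dose replicate 2 CFAP126 differed by -0.32 (limma p = 0.044, not passing after adjustment), and the list's median was -0.16. In the arrays of neither class the slopes split, 6 above 0 and 4 below, with a median of 0.03.

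Of 18 genes of meninges and fibroblasts 12 lay above 0, with a median of 0.04, against 44.2% of all probe sets above 0. Of the 18, 1 had an unadjusted p under 0.05 and was lower, as 0.589% of all probe sets were. It was COL3A1, a fibrillar collagen, with 6.0, 6.2 and 6.4 in TTR-high against 6.1, 6.4 and 6.7 in TTR-low arrays (-0.19, SE 0.08, limma p = 0.025, adjusted p = 1). Of 19 vessel genes 13 lay above 0 (median 0.04), with CDH5, the cadherin of endothelial junctions, at 0.24. Of 5 erythrocyte genes 3 lay above 0 (median 0.09), and AHSP, a haemoglobin chaperone, read 4.6, 5.0 and 6.5 in TTR-high against 4.1, 4.9 and 5.5 in TTR-low arrays (0.41, SE 0.22, limma p = 0.077, adjusted p = 1). The 6.5 was high dose replicate 2, without which the difference was 0.26 and the list's median 0.02.

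Lists of the hippocampal tissue itself, of neighbouring tissue and of cell state had medians between -0.13 and 0.05. Medians were 0.03 over 11 microglial genes (6 above 0), 0.03 over 11 astrocyte genes (6 above 0), -0.01 over 16 oligodendrocyte genes (3 above 0) and -0.07 over 13 neuronal genes (3 above 0). They were -0.13 over 7 hippocampal subfield genes (2 above 0), 0.05 over 4 thalamic genes (4 above 0), -0.04 over 18 immediate early genes (7 above 0) and -0.07 over 11 genes of hypoxia and glycolysis (3 above 0). In these lists 0 genes had an unadjusted p under 0.05, against 1.1% of all probe sets. Without high dose replicate 2 the oligodendrocyte median was -0.16, the neuronal median 0.03, the subfield median -0.02 and the immediate early median 0.01. In the arrays of neither class, oligodendrocyte slopes on TTR were 14 above 0 and 2 below (median 0.21). Microglial slopes there were 1 above and 10 below (median -0.15), while 49.1% of all probe sets lay above 0. In each of these lists 1 gene had an unadjusted p under 0.05 in that direction, against 2.25% of all probe sets upwards and 2.29% downwards.

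**Figure D4:**
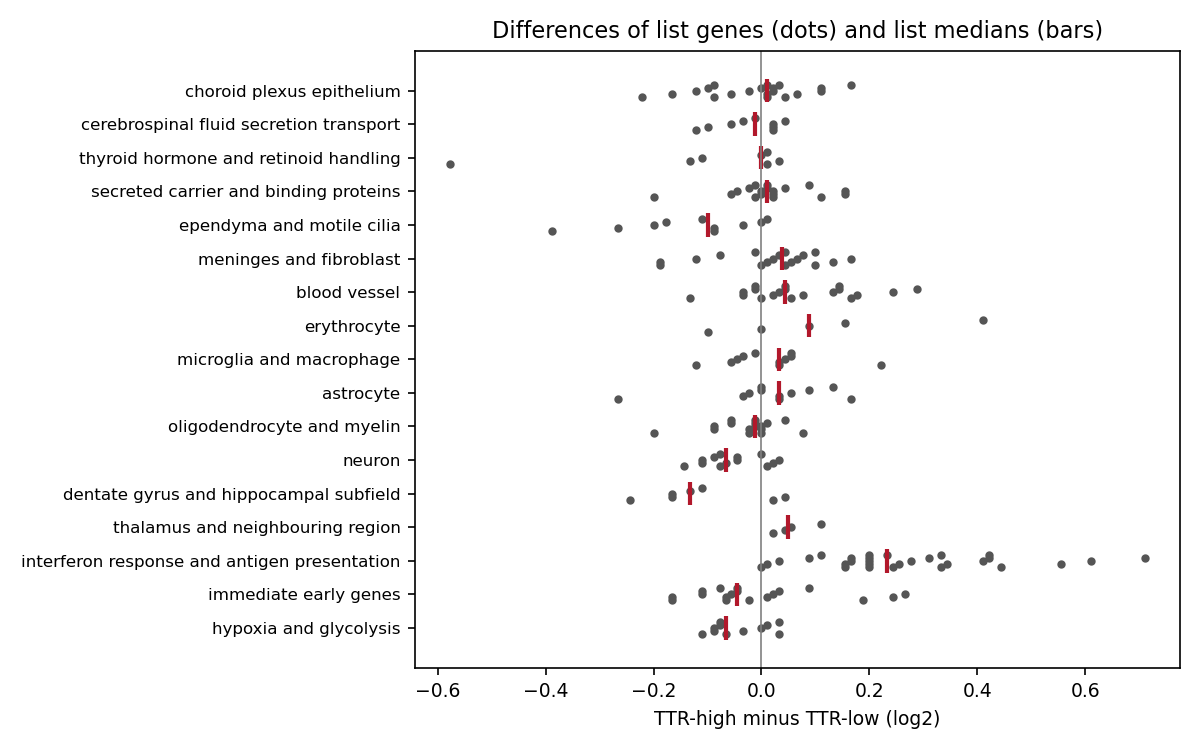
Difference TTR-high minus TTR-low in log2 for each tested gene of 17 lists (dots), with the list medians (bars). The choroid plexus median is 0.01, and the interferon list, at a median of 0.23, lies farthest from 0.

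The list farthest from 0 was that of interferon response and antigen presentation, genes induced by antiviral signalling and those that load peptides for T cells. Of 29 genes 28 lay above 0 and 1 at 0, with a median of 0.23, while 44.2% of all probe sets lay above 0. Of the 29, 1 had an unadjusted p under 0.05 and was higher, as 0.511% of all probe sets were. That gene, IRF1, a factor induced by interferon, read 6.8, 7.6 and 8.8 in TTR-high against 6.7, 7.1 and 8.1 in TTR-low arrays (0.56, SE 0.26, limma p = 0.041, adjusted p = 1). GBP2, a guanylate-binding protein, differed by 0.42, STAT2, a signal transducer of interferon, by 0.20 and PSMB10, an immunoproteasome subunit, by 0.16. Without high dose replicate 2 the list's median was 0.28. There IRF1 differed by 0.58, GBP2 by 0.47, STAT2 by 0.24 and PSMB10 by 0.10.

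This direction did not hold in the arrays of neither class. There, 29 of 29 interferon list slopes lay below 0, with a median of -0.53, and 9 had an unadjusted p under 0.05 (2.29% of all probe sets lay there). The list mean was 6.99, 7.50 and 8.87 in TTR-high, and 6.99, 7.24 and 8.61 in TTR-low arrays (lowest, median, highest). It was above 8 in 3 of 9 TTR-high, 2 of 9 TTR-low and 3 of 18 other arrays, with no array between 7.74 and 8.23. All 8 were in set codes S4 and S5. Within S4 the difference between classes was -0.34 (4 TTR-high arrays against 1) and within S5 it was -0.49 (1 against 1), while in S1, S2 and S3 it was 0.15, -0.04 and 0.06. Within feeding groups it was 0.87 among controls (3 arrays against 4), 0.19 at the medium dose (3 against 1) and 0.05 at the high dose (3 against 4). With set code as a block the list median was -0.11, without control replicate 8 it was 0.10, without high dose replicate 10 it was 0.11, and with high dose replicate 11 exchanged for the tied control replicate 12 it was 0.36. The part of the set codes in this result was not tested further.

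**Figure D5:**
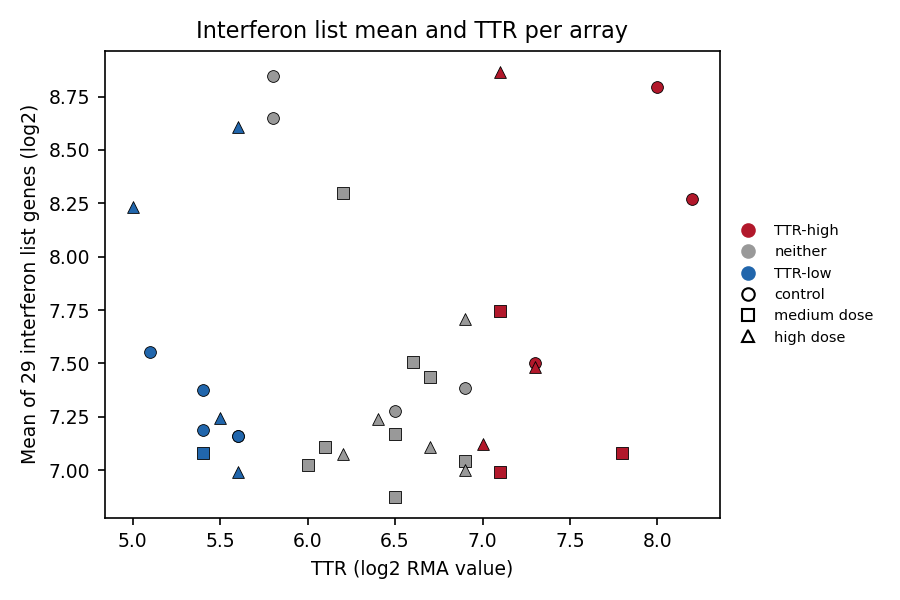
Mean log2 level of 29 interferon and antigen presentation genes against TTR (log2) in each of 36 arrays, with colour for the class and marker shape for the feeding group. The 8 arrays above 8 lie at both ends of TTR and between them.

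Within set codes the choroid plexus list mean also had no common sign: TTR-high minus TTR-low was 0.36 in S1 (1 array against 3, the 1 being high dose replicate 2). It was -0.14 and -0.11 in S2 and S3, and close to 0 in S4, and -0.17 in S5. Within feeding groups it was 0.04 among controls, -0.29 at the medium dose (3 arrays against 1) and 0.06 at the high dose.

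The 10 named genes with the smallest unadjusted p between the classes did not pass, each with an adjusted p of 1. ABCB6, a porphyrin transporter, read 5.1, 5.4 and 5.6 in TTR-high against 5.4, 5.7 and 5.8 in TTR-low arrays (-0.27, SE 0.08, limma p = 0.00215). TOP2A, a topoisomerase of dividing cells, read 5.3, 5.6 and 6.0 in TTR-high against 4.9, 5.3 and 5.6 in TTR-low arrays (0.33, SE 0.10, limma p = 0.00265). The ranges of both genes overlapped between the classes, as did those of all probe sets tested.

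MUC19, a mucin, differed by 0.41, VAV1, an exchange factor of blood cells, by 0.18 and WFDC2, a secreted protease inhibitor, by 0.21. BDH2 differed by -0.29, LOC100520426 by -0.26, P2RX4, an ATP-gated channel, by -0.24, and TMEM131L and CAPN1, a calpain protease, by -0.18 each. In the arrays of neither class, ABCB6, VAV1, MUC19 and WFDC2 had slopes of the opposite sign, and the p of the 10 slopes ran between 0.089 and 0.731 (limma, adjusted p at least 0.958).

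The 5 named genes most like TTR in the 18 arrays of neither class were chosen by Pearson's r, which was 0.752 for BCL7B, 0.721 for ABTB1, 0.705 for RYBP, 0.686 for RHOU and 0.680 for ATRN. Over all 36 arrays r was 0.005, 0.335, -0.135, 0.088 and 0.077 for the same genes in that order. Their differences between TTR-high and TTR-low arrays were -0.04, 0.08, -0.07, 0.02 and -0.01, and that of RHOU was -0.11 without high dose replicate 2.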

How the data were processed

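RNA from 36 piglet hippocampus samples was measured on Affymetrix porcine arrays. The authors deposited log2 values. Per the submitters' processing notes, the tools were RMA and Affymetrix Expression Console 1.1. Background correction, normalisation and probe summary were therefore theirs, and raw signals were not used, so the number of arrays limits the precision. Values carry 1 decimal in the deposited table, which coarsens small differences and gives ties. The table holds 23999 probe sets and 124 controls. The platform annotation gave 10069 probe sets 1 gene symbol, 198 several and 13732 none, and 9961 were matched to RefSeq by gene ID.

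Arrays were ranked by TTR, ties by column order. Controls, TTR and all sets whose average over the arrays lay under the 25th percentile were left out (18005 kept). Classes and slopes were fitted with limma 3.58.1 (lmFit, eBayes) in R 4.3.3, two-sided, with Benjamini-Hochberg adjustment and a threshold of 0.05. The script was tested on simulated data. The classes, the 17 gene lists (448 symbols) and the alternatives were chosen with earlier results of these data known. Lists were described by counts and medians, with the probe set of highest mean per gene.

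The genes named are, of those that passed, the 15 largest differences in each direction, or, with fewer than 10 passing, the 10 with the smallest unadjusted p. Added are the measured choroid plexus genes, up to 4 genes of smallest p per other list, and the 5 genes most correlated with TTR in the other 18 arrays. Blocks for set code, feeding group, replicate number and the spike-in control Dap, other filters, normalisations, class sizes and single arrays left out were tried. The choice among arrays tied at 5.6 was added after seeing the data. Plots used matplotlib 3.10.9 in Python 3.11.15.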

Additional observations from a re-analysis of the deposited data

Results flagged for a closer look

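In each class, an array whose value lay apart from the other 8 by more than Dixon's critical share of the class range was marked. Among 240 groups of 9 values 33 were found. The rule's nominal rate of about 1 in 20 holds for continuous values in independent groups. These values carry 1 decimal with ties, and the groups share arrays and genes, so the 33 were not tested against that rate.

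High dose replicate 2, a TTR-high array, accounts for 14 of them. In it RHOU read 9.7, C3H2orf40 8.0, CALML4 7.1, ENPP2 12.6, TF 13.7, GFAP 13.6, ENPP6 9.1 and OLIG2 8.6, each the highest of TTR-high. THY1 at 10.1, ENO2 at 10.2 and SLC2A3 at 7.4 were the lowest. Its list means stood apart too, at 7.11 for choroid plexus, 9.64 for secreted carriers and 10.5 for neurons, the last being the lowest.

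In the TTR-high class, control replicate 10 read 6.6 for MUC19, the highest, and 7.8 for CA12 and 6.1 for ALDH1A1, the lowest. High dose replicate 10 read 7.4 for BCL7B, the lowest, and 6.2 for CDH3, 6.6 for ACE and 6.4 for CLDN3, the highest. Medium dose replicate 5 was lowest in FOLR1 at 6.3, and control replicate 6 was highest in the meninges mean at 7.48.

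In the TTR-low class, high dose replicate 7 was lowest in BCL7B at 7.2 and in RORA at 5.6. Medium dose replicate 1 was highest in SLC2A12 at 5.6 and IGFBP2 at 6.8, and lowest in MOBP at 13.0. High dose replicate 1 was highest in FBLN1 at 7.6 and in the meninges mean at 7.33, and high dose replicate 12 in BTG2 at 8.0 and in the immediate early mean at 7.50. Control replicate 2 was highest in the thyroid and retinoid mean at 7.27.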

How the results depend on the processing

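In all 38 settings of the class comparison 0 probe sets passed in limma, and in the slopes on TTR and the feeding contrasts of the choroid plexus list 0 passed in every setting run. The count at an unadjusted p under 0.05 was 198 of 18005 probe sets as reported (1.1%). It moved to 512 with set code as a block, 305 with feeding group and 1059 with both. It was 336 with array weights, 352 with all 36 arrays fitted and 647 with 6 arrays a class. With TTR centred on its set code it was 506 (7 of 9 arrays shared in each class). Some settings changed the number of probe sets tested, so their counts cannot be compared directly with 198. They gave 371 without a filter, 100 with a filter at the 50th percentile and 69 with 1 probe set per gene. Leaving out 1 array gave 161 to 326, the highest without medium dose replicate 12. The slopes' count moved to 1873 in the other 18 arrays with feeding group as a block (818 as reported) and to 939 in all 36 with set code (595 as reported). The counts of 1059, 1873 and 939 lay above the nominal 5% of 18005 probe sets.

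Of 746 choroid plexus gene and setting pairs 0 passed, 84 had the opposite sign and 1 moved by over 1 SD of the gene's TTR-low arrays. That was C3H2orf40, at 0.38 with set code and feeding group as blocks. There TAGLN was 0.74 (0.29 without blocks), THY1 -0.29 (-0.14 without) and RGS14 -0.58 (-0.13 without). Without high dose replicate 2, THY1 was -0.02 and MRC1 -0.00417 (-0.06 with that array). The list's median ran between -0.06 and 0.05 over the settings, and that of the interferon list between -0.11 and 0.36, below 0 with set code as a block, with both blocks, with 12 arrays a class and with set-centred TTR. The causes were not tested.

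The deviations of 36 same-numbered pairs correlated between -0.447 and 0.306, with 8 over 0.1. Pairs of different numbers were not compared, so these values cannot show whether replicate numbers pair the samples. With a replicate block 0 probe sets passed and 225 had an unadjusted p under 0.05, and 0 choroid plexus genes passed in the feeding contrasts. Averaging several TTR probe sets was not run because 1 probe set is named TTR, and the 50th percentile filter left no thalamic gene. Dim genes limit what could be seen, as 6 of 20 tested plexus genes lay within 1 of the dim limit.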
